A study of Mus musculus with 12 samples.

Results

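Fn1, Vcan, Tgfbi, Col18a1 and Htra1 are 5 genes for secreted matrix proteins or a protease that acts on them, out of 24445 genes measured in mouse bone marrow-derived macrophages. They were selected on their read counts, which were higher in cells that lacked the histone methyltransferase DOT1L than in wild-type cells, both with and without lipopolysaccharide (LPS). The values they were chosen by are therefore given as a description, with no test. Their responses to LPS and their exon use were not used in that choice. The lists of genes around them were set with earlier results of these data known.

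The 4 groups, of 3 libraries each, were DOT1L knockout (KO) and wild-type (WT) macrophages given LPS, and KO and WT macrophages left untreated. All came from C57BL/6 mice whose genotype the labels describe as myeloid and tie to Lyz2, a gene of macrophages and granulocytes. The sources used here do not give the exons removed or the ages of the mice. Marrow was cultured for 7 to 8 days in medium that held conditioned medium of L929 cells as the source of the growth factor M-CSF, so each library represents cells matured in culture and not tissue macrophages. LPS, a component of the bacterial outer membrane that activates the receptor TLR4, came from Escherichia coli and was given at 10 ng/mL for 3 hours. Replicates are called biological in the submitters' text, but whether each is a separate mouse is not stated, so the errors cover the spread between these libraries.

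The extracellular matrix is the protein and sugar network around cells. Macrophages make a small set of its components and cut others, and fibronectin, versican and the TGF-beta-induced protein are among the matrix genes that monocytes and macrophages are known to express. Fn1 encodes fibronectin, an adhesive glycoprotein that binds integrins and collagen. Tgfbi encodes the TGF-beta-induced protein, a secreted integrin ligand first found as a target of the growth factor TGF-beta. Vcan encodes versican, a large chondroitin sulfate proteoglycan that binds hyaluronan. Col18a1 encodes the alpha chain of collagen XVIII, a basement membrane collagen whose end fragment is endostatin. Htra1 encodes a secreted serine protease that cleaves fibronectin among other substrates and is known to dampen signalling of the TGF-beta family.

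On the mouse assembly GRCm38.p6, Fn1 lies on the minus strand of chromosome 1 (71585473 to 71653280). Vcan (89655309 to 89743027, minus strand) and Tgfbi (56609586 to 56639359, plus strand) are both on chromosome 13. Col18a1 lies on chromosome 10 (77052178 to 77166530, minus strand) and Htra1 on chromosome 7 (130936203 to 130985658, plus strand). The sources used here do not say whether counting used strand. The antisense gene Apol7d shares 292 of the 11685 exonic bases of Fn1 and is listed at 0 reads in every library. The other annotated neighbours that overlap a member share no exonic base with it.

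The deposited tables held 8.64 to 13.54 M counts per library over 1 transcript per gene, at which 3 reads correspond to 0.222 to 0.347 CPM (counts per 1 M counts) before scaling. CPM below are on 1 scale for all 12 libraries, after scaling by edgeR's TMM, which matches libraries on the bulk of their genes. That scaling puts 3 reads lower in untreated libraries (factors 1.15 to 1.26) and higher in LPS libraries (0.773 to 0.847). Of the macrophage markers, 10 of 10 were present, with 5 of them above and 5 below WT in KO cells in each condition. Lyz2, which was lower in KO, was the most abundant of them, and with it the list had summed levels of 10095 to 11491 CPM in KO and 13354 to 16497 CPM in WT with LPS, and 7912 to 8809 CPM in KO and 10715 to 13577 CPM in WT without it. WT replicate 1 stood apart from all other libraries in both conditions, with scores of -35.6 with LPS and -36.1 without on the second principal component, against scores of -3.55 to 12.9 elsewhere. No libraries held identical counts. Dot1l was at 60.6 to 111 CPM in all 12 libraries, and since the counts cover the whole transcript this does not check the genotype labels.

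Fibronectin and versican are spliced into forms that differ in adhesive or sugar-bearing exons, and the sequences of the fibronectin exons that the counts bear on are shown first. EDB and EDA are exons found in fibronectin made by cells in tissue and left out of the plasma protein that liver makes. EDB is exon 25 of 46 of the longest Fn1 transcript (chr1:71613763-71614035, GRCm38, minus strand, 273 bases) and EDA is exon 33 (chr1:71603660-71603929, 270 bases). The V region is the start of exon 40, and its first 75 bases (chr1:71597673-71597747) code for the segment known as CS1, a binding site for integrin alpha4beta1. The capitals in the third sequence mark the codons of the integrin-binding motif of CS1.
EDB: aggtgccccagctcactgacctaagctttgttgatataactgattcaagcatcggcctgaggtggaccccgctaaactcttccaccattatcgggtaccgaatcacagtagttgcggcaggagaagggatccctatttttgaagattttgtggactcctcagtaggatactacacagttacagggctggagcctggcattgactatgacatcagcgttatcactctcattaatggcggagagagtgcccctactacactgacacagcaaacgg
EDA: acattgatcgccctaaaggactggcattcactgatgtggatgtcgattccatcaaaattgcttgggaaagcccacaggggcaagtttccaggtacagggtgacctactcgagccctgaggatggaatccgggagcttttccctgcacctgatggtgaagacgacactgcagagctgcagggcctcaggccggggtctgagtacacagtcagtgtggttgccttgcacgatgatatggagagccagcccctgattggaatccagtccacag
CS1: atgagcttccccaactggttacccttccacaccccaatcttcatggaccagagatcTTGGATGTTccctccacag

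Fibronectin messages in these macrophages showed next to no EDB and little or no EDA. The V region as a whole was at 85.3% and 71.4% of the density of the shared exons, by pair of rows. Its CS1 part fell further below that density. The rows of the deposited tables are transcripts, and a row with an exon minus a row without it leaves a net number of reads for that exon. Over all 12 libraries, the exons that every Fn1 form shares had 498 reads per kb. At that density EDB would hold 136 reads, against a net count of 1 read, or 0.735% of the shared density (exact 95% interval 0.0186% to 4.10%, counting error only). EDA would hold 134 reads, and the net counts were 12 in one pair of rows and -13 in the other. The V region, which would hold 179 reads, had 153 (85.3%) and 128 (71.4%). Its CS1 part had a net 5 reads in each of the pairs, where 37.4 reads would be held at the shared density, or 12.95 if reads of 50 bases had to lie wholly within it.

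The sources used here do not give the counting rule, and the tables limit how exactly such differences can be read. Among 293 pairs of rows in the whole table that differ by 1 internal exon, have at least 500 reads and share their outer ends to within 10 bases, the row with the exon held fewer reads in 33. A row difference can therefore understate an exon, as the negative EDA value shows. The net share of the V region among Fn1 reads averaged 4.23 ± 1.93% in KO and 7.75 ± 1.71% in WT with LPS (SD, n = 3 each; two-sided exact permutation p = 0.2). Without LPS it averaged 3.54 ± 1.39% in KO and 2.82 ± 0.34% in WT (exact permutation p = 0.6, n = 3 each). With 3 libraries against 3 the smallest p this test can give is 0.1.

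Versican was read almost entirely as the form named V1, which has the GAG-beta exon and lacks GAG-alpha. These are the large exons to which chondroitin sulfate chains are attached: V0 holds both, V1 holds GAG-beta, V2 holds GAG-alpha and V3 holds neither. In the 6 LPS libraries, the GAG-beta exon (chr13:89688285-89693501, 5217 bases) had 6247 reads, or 93.8% of the density of the shared exons (exact interval 90.5% to 97.3%). The GAG-alpha exon (chr13:89702918-89705797, 2880 bases) had 185 reads, or 5.03% (4.32% to 5.83%). The other pair of rows gave 6269 reads for GAG-beta and 207 for GAG-alpha. For the balance between genotypes, 3 libraries against 3 cannot give a p under 0.1, so the tests cannot pass 0.05 and do not show that the balance is the same. GAG-beta made up 51.3 ± 2.40% of Vcan reads in KO and 53.7 ± 0.85% in WT with LPS (exact permutation p = 0.3, n = 3 each). GAG-alpha made up 1.49 ± 0.07% in KO and 1.67 ± 0.43% in WT (exact permutation p = 0.7, n = 3 each). Without LPS, Vcan had 101 reads in all KO and 50 in all WT libraries, too few to compare forms.

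**Figure D1:**
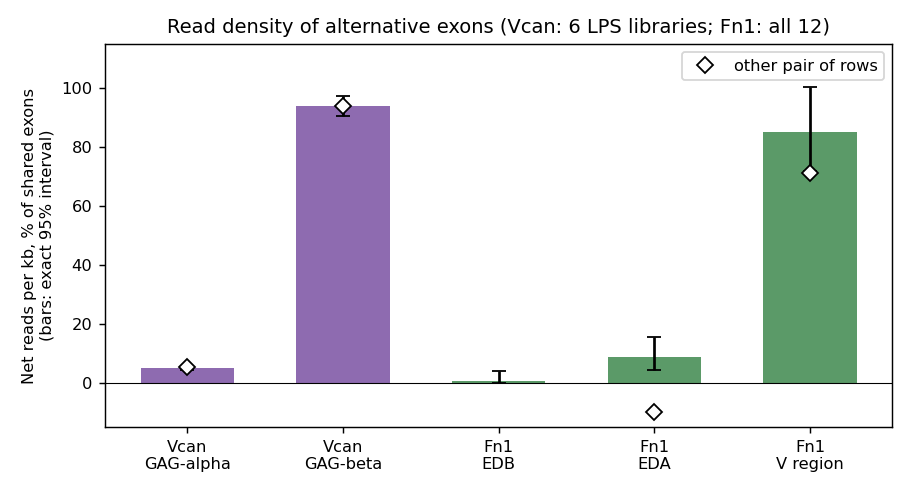
Net reads per kb of alternative exons of Vcan (6 LPS libraries pooled) and Fn1 (all 12 libraries pooled), in percent of the exons that all forms of the gene share. Bars are the first pair of transcript rows with exact 95% intervals and diamonds the other pair. GAG-beta stands near the shared density and the whole V region at 85.3% and 71.4% of it, while GAG-alpha, EDB and EDA stand near 0. The CS1 part of the V region is not drawn.

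Tgfbi and Htra1 have 1 transcript row each. The 2 rows of Col18a1, which start at different promoters, held nearly the same reads (the lower 98.1% of the higher), so starts could not be told apart. Of the 5 Vcan rows, a short form held 8.56% of the reads of the V0 row.

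Fn1 and Tgfbi had a higher level in KO macrophages that was about the same with and without LPS. Fn1 had 38.0, 33.6 and 34.6 CPM in KO libraries, against 15.0, 16.3 and 15.3 CPM in WT libraries, after LPS. Without LPS, Fn1 had 39.8, 42.1 and 30.1 CPM in KO and 12.1, 19.3 and 19.1 CPM in WT. Every KO library was above every WT library, and the lowest KO library without LPS held 1.56 times the highest WT library. The log2 fold change of KO over WT was 1.18 ± 0.11 with LPS and 1.16 ± 0.20 without (± approximate SE, n = 3 each here and below).

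Tgfbi, the most abundant of the 5 genes per length of transcript, had 93.9, 130.6 and 113 CPM in KO and 77.9, 61.9 and 51.8 CPM in WT with LPS. Without LPS it had 103, 124 and 121 CPM in KO and 75.3, 68.8 and 55.9 CPM in WT. The groups did not overlap in either condition, although the nearest libraries with LPS were only 1.21 times apart. The log2 fold change was 0.81 ± 0.15 with LPS and 0.82 ± 0.13 without.

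Vcan and Htra1 were nearly silent in untreated cells of both genotypes and highly induced by LPS, and at each of these very different levels KO exceeded WT. Vcan had 243, 230 and 240 CPM in KO and 189, 160 and 150 CPM in WT with LPS. Without LPS its levels were 2.36, 2.32 and 2.14 CPM in KO (38, 30 and 33 reads) and 1.93, 1.19 and 0.958 CPM in WT (20, 17 and 13 reads). The groups did not overlap in either condition, with the nearest untreated libraries 1.11 times apart. Its log2 fold change of 0.51 ± 0.10 with LPS was the smallest among the members, and without LPS it was 0.79 ± 0.28.

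Htra1 had 23.0, 30.2 and 27.5 CPM in KO and 15.3, 12.0 and 11.7 CPM in WT with LPS. Without LPS it had 1.99, 2.40 and 1.75 CPM in KO (32, 31 and 27 reads) and 0.774, 0.281 and 0.737 CPM in WT (8, 4 and 10 reads). All KO libraries again lay above all WT libraries. The log2 fold change was 1.05 ± 0.15 with LPS and 1.82 ± 0.36 without, the largest and least precise of the 10 values. In untreated cells Htra1 passed the filter on low counts only through its level in KO.

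Col18a1 lay between these patterns, present in untreated cells and higher with LPS. It had 124.4, 105 and 124.1 CPM in KO and 60.8, 72.7 and 70.4 CPM in WT with LPS, and 56.9, 52.7 and 59.9 CPM in KO and 21.5, 29.8 and 33.2 CPM in WT without it. The genotypes did not overlap in either condition. The log2 fold change was 0.78 ± 0.10 with LPS and 1.02 ± 0.15 without. The untreated KO libraries lay just under the LPS-treated WT libraries, 52.7 to 59.9 against 60.8 to 72.7 CPM.

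**Figure D2:**
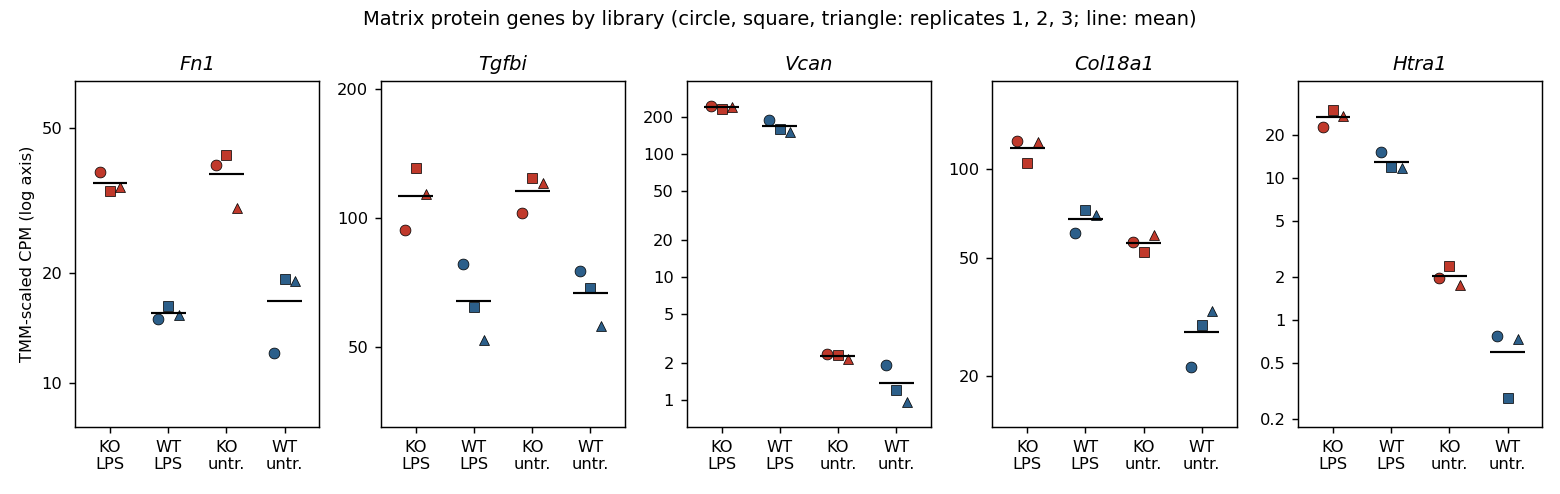
TMM-scaled CPM (log axes that differ between panels) of the 5 genes in each of the 12 libraries, KO in red and WT in blue, with lines at the group means. In every panel the 3 KO libraries lie above the 3 WT libraries of the same condition, while Vcan and Htra1 lie far higher with LPS than without.

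All 5 genes passed the filter on low counts and had every KO library above every WT library in both conditions, as their choice required of the direction. Among all genes tested, 11.1% had this separation with LPS, 6.76% without and 2.51% in both. For comparison, 1.0% of 11264 genes were called higher in KO with LPS by edgeR's quasi-likelihood test at an adjusted p under 0.05 and 0.124% lower. Without LPS the test called 0 of 11622 genes, while 841 had an unadjusted p under 0.05 and DESeq2 called 49. Without untreated WT replicate 1, edgeR called 749.

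**Figure D3:**
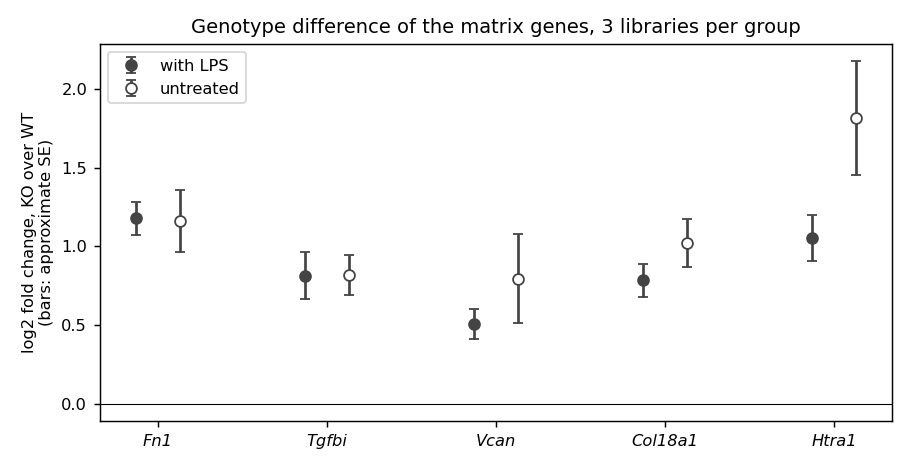
Log2 fold change of KO over WT for the 5 genes with LPS (filled) and untreated (open), from edgeR on 3 libraries per group, with approximate SE as bars. All 10 values are above 0, from 0.51 for Vcan with LPS to 1.82 for Htra1 untreated; the genes were chosen for this direction.

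WT replicate 1 touched the members in different ways. In untreated cells it was the lowest WT library for Fn1 and Col18a1, by 0.44 and 0.37 on the log2 scale below the group mean, and the highest for Vcan, Tgfbi and Htra1. Without it, the untreated difference became 0.98 for Fn1 and 0.87 for Col18a1, and 1.09 for Vcan, 0.92 for Tgfbi and 2.02 for Htra1. With LPS, leaving it out gave 1.15 for Fn1, 0.71 for Col18a1, 0.61 for Vcan, 0.97 for Tgfbi and 1.17 for Htra1.

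Per length of transcript, the authors' RPKM gave Tgfbi the highest level in both conditions and both genotypes. With LPS, Tgfbi averaged 31.1 ± 4.48 RPKM in KO and 17.2 ± 2.49 RPKM in WT (SD, n = 3 each here and below). Col18a1 followed with 15.6 ± 1.80 RPKM in KO and 8.79 ± 1.31 RPKM in WT, and Vcan with 14.1 ± 0.75 RPKM in KO and 9.61 ± 0.56 RPKM in WT, the libraries of these overlapping. This order rests on the V0 row of Vcan, and on the shorter V1 row, the form that most reads fit, Vcan averaged 18.1 ± 0.95 RPKM in KO and 12.3 ± 0.66 RPKM in WT, above Col18a1 in every library of the same genotype. Htra1 had 9.75 ± 1.16 RPKM in KO and 4.59 ± 0.39 RPKM in WT. Fn1 came last with 3.11 ± 0.26 RPKM in KO and 1.34 ± 0.13 RPKM in WT.

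Without LPS, Tgfbi again led with 48.3 ± 4.60 RPKM in KO and 26.3 ± 3.09 RPKM in WT, ahead of Col18a1 with 11.2 ± 0.90 RPKM in KO and 5.35 ± 1.37 RPKM in WT. Fn1 followed with 4.93 ± 0.78 RPKM in KO and 2.13 ± 0.61 RPKM in WT. Htra1 was at 1.12 ± 0.16 RPKM in KO and 0.307 ± 0.136 RPKM in WT. Vcan was last with 0.203 ± 0.009 RPKM in KO and 0.114 ± 0.036 RPKM in WT, where its WT libraries overlapped those of Htra1. On the V1 row Vcan averaged 0.254 ± 0.008 RPKM in KO and 0.134 ± 0.049 RPKM in WT. RPKM lack the TMM scaling, so the RPKM levels above are not set across conditions. The fits on RPKM below do cross conditions, and the shift of the median of all genes is given with them.

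The response to LPS was not part of the choice of genes and could be tested. Vcan, Htra1 and Col18a1 rose in both genotypes, while no response of Fn1 or Tgfbi was found at this scaling. By edgeR's quasi-likelihood test on all 12 libraries, 61.2% of 11984 genes were called in KO (30.3% higher) and 57.4% in WT (27.6% higher), so a call alone is common after LPS. The size of the Vcan change is not: it ranked 87 of all genes in KO and 69 in WT.

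Vcan rose by 6.70 ± 0.15 on the log2 scale in KO (adjusted p = 4.53e-13) and by 6.97 ± 0.16 in WT (adjusted p = 7.25e-13), which corresponds to 104 and 125 times. Pooled over libraries, 7798 LPS reads stood against 101 untreated reads in KO, and 4171 against 50 in WT. These small untreated counts set the precision: the pooled ratio was 105 in KO (exact 95% interval 86.0 to 129) and 125 in WT (94.96 to 169), counting error only.

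Htra1 rose by 3.72 ± 0.20 in KO (adjusted p = 1.44e-09) and by 4.45 ± 0.26 in WT (adjusted p = 4.07e-09). The pooled ratios were 13.2 (10.7 to 16.6) in KO and 22.1 (14.4 to 35.8) in WT. Every LPS library was above every untreated library in both genotypes, also for Vcan and Col18a1. Col18a1 rose by 1.06 ± 0.13 in KO (adjusted p = 8.35e-06) and by 1.27 ± 0.14 in WT (adjusted p = 2.59e-06), or 2.09 and 2.41 times.

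Fn1 changed by -0.08 ± 0.16 in KO (adjusted p = 0.703) and by -0.12 ± 0.17 in WT (adjusted p = 0.571). Tgfbi changed by -0.04 ± 0.15 in KO (adjusted p = 0.84) and by -0.06 ± 0.16 in WT (adjusted p = 0.751). These values depend on the scale. TMM factors were 0.773 to 0.847 in LPS libraries and 1.15 to 1.26 in untreated ones, and on the authors' RPKM, which lack this scaling, the median of all genes shifted by -0.59 in KO and -0.57 in WT. On that scale, limma put Fn1 at -0.64 in KO and -0.60 in WT (adjusted p = 0.0123 and 0.017), and Tgfbi at -0.64 in KO and -0.62 in WT (adjusted p = 0.00126 and 0.00159). Relative to the median of all genes, both thus stayed within 0.1 of it on either scale in KO and in WT. The balance of calls differed between the 2 fits, which differ in test, measure and scaling, with 3633 genes higher and 3700 lower in KO and 3309 higher and 3567 lower in WT by edgeR, against 1751 higher and 7624 lower in KO and 1713 higher and 7563 lower in WT by limma on RPKM. Col18a1 remained called, at 0.47 in KO (adjusted p = 0.0331) and 0.73 in WT (adjusted p = 0.00309).

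The difference of the LPS responses between genotypes is also the difference between the genotype contrasts with and without LPS that the members were chosen by, so it is given for them as a description. The response in KO minus that in WT was -0.74 ± 0.37 for Htra1, -0.27 ± 0.25 for Vcan and -0.21 ± 0.19 for Col18a1. For Fn1 and Tgfbi the differences were 0.05 ± 0.24 and 0.02 ± 0.22. Over all 11984 genes edgeR called 0 such differences, with 288 at an unadjusted p under 0.05, and DESeq2 also called 0.

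**Figure D4:**
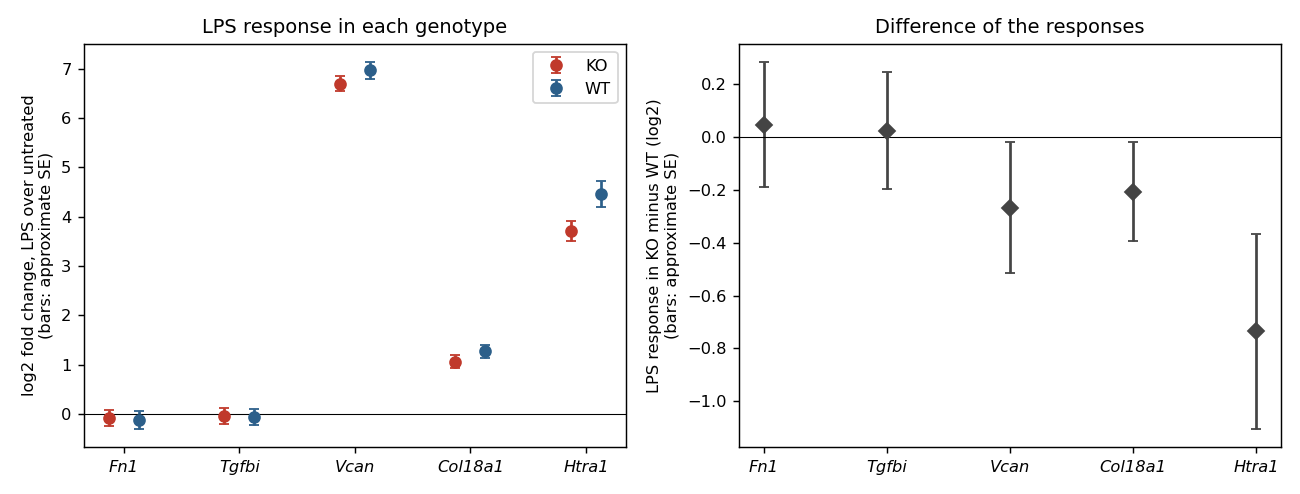
Left, log2 fold change of LPS over untreated for the 5 genes in KO (red) and WT (blue); right, the KO response minus the WT response, with approximate SE as bars (edgeR, 3 libraries per group). Vcan, Htra1 and Col18a1 rose in both genotypes, and Fn1 and Tgfbi lay near 0; the differences on the right run from -0.74 for Htra1 to 0.05 for Fn1.

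Promoter sequences are shown for 2 genes that responded to LPS, Htra1 and Col18a1, beside Tgfbi, for which no response was found, from RefSeq on GRCm38.p6 (4 of the 5 members were in the table of promoters). Each ends before the first annotated transcript begins. Capitals mark the GC box (GGGCGG), the CCAAT box (CCAAT) and a pair of TTTC runs with 2 bases between them, which resembles an interferon response element, on either strand. The stretches are chr7:130935953-130936110 for Htra1 (plus strand), chr10:77166549-77166780 for the outer start of Col18a1 (minus strand) and chr13:56609336-56609522 for Tgfbi (plus strand).
Htra1: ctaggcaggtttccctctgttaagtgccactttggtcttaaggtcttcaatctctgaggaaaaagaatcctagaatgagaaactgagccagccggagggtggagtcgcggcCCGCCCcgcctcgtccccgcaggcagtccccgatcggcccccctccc
Col18a1: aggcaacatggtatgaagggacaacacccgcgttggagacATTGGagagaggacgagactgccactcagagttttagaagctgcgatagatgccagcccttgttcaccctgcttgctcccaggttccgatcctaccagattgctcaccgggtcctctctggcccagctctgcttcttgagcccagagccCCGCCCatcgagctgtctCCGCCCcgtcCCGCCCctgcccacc
Tgfbi: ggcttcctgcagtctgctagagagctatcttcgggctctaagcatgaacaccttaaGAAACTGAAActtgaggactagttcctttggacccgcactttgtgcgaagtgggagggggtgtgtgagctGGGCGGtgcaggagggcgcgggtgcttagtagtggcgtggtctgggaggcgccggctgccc

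In the 250 bases before its start, Vcan had 2 GC boxes and 1 CCAAT box, while Htra1 had 1 of each, its CCAAT box in a part not shown. Tgfbi had 1 GC box and 1 pair of TTTC runs that begins 194 bases before the start. Col18a1 had 3 GC boxes and 1 CCAAT box before its outer start, and a CAGACA box but neither of the others before its inner start. None of these 5 windows held an NF-kB site, an AP-1 site (TGANTCA), a cyclic AMP response element (TGACGTCA) or a TATA box (TATAAA). Over 32851 promoters of the same length, the shares with a match were 32.7% for the GC box, 33.9% for the CCAAT box, 2.98% for the TTTC pair and 17.1% for CAGACA. For the motifs with no match they were 0.98%, 6.75%, 1.55% and 12.4% in the order given. A match is a run of letters and not a shown binding site.

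Over the 12 libraries, Vcan and Htra1 followed each other (Pearson r = 0.963 of log2 CPM), as did Htra1 and Col18a1 (0.902), Vcan and Col18a1 (0.811), and Fn1 and Tgfbi (0.804). Vcan with Fn1 gave 0.02 and Vcan with Tgfbi 0.03. By likeness to Vcan, Htra1 ranked 1271 and Col18a1 2831 of 11442 genes, and by likeness to Htra1, Col18a1 ranked 1467. In reverse, Vcan ranked 113 for Htra1 and 792 for Col18a1, and Htra1 ranked 86 for Col18a1. Tgfbi ranked 45 for Fn1, and Fn1 ranked 68 for Tgfbi. Many other genes thus followed each member more closely. The points are 4 groups of 3 and share the LPS and genotype contrasts, so these are descriptions. The members were chosen for the genotype contrast, so r between members is partly set by that choice. Among 11442 genes, those most like Vcan were Batf2, Samhd1 and Tnfsf10 (r = 0.999, 0.999 and 0.998), and those most like Htra1 were Clic5, Ccdc63 and Plaat3 (0.989, 0.987 and 0.987). Col18a1 was most like Mmp10, Bcam and Gprc5c (0.969, 0.968 and 0.968). Tgfbi was most like Cyp4f18, Clec10a and Csf1r, the receptor for M-CSF (0.99, 0.974 and 0.951), and Fn1 most like H1f2, Tcf24 and Arhgef17 (0.925, 0.921 and 0.9).

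Within groups the members did not move as a unit. After the group means were taken out, Col18a1 ran against Vcan (r = -0.87) and against Tgfbi (-0.70), and Fn1 ran against Vcan (-0.64) but with Col18a1 (0.618). Fn1 with Tgfbi gave r = -0.44. Among the 12 points, untreated WT replicate 1 lay at -0.44 for Fn1, -0.37 for Col18a1 and 0.51 for Vcan, and the points share their libraries. The genes most like each member on these deviations were Lsm6, Krtcap3 and Pfkp for Fn1 (0.96, 0.948 and 0.93), Wipf1, Pik3r1 and Rb1cc1 for Vcan (0.971, 0.97 and 0.967), and Rnase4, Cd81 and Ctsc for Tgfbi (0.978, 0.976 and 0.964). For Col18a1 they were Cdan1, Gins1 and Nop16 (0.99, 0.98 and 0.977), and for Htra1 Ak1, Zfp963 and Kdm5b (0.93, 0.918 and 0.911).

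Most other genes of the matrix and of TGF-beta signalling were not called different between KO and WT macrophages. With LPS, 7 genes over 3 of 11 lists rose in KO and 0 fell, where 1.13% of all genes tested were called. The members are left out of these lists, and the median of all genes was -0.01. As the lists were set with earlier results of these data known, their calls are no independent support. Without LPS, 0 genes of any list were called, as 0 were among all genes.

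Receptors and assembly factors of fibronectin had 17 measured members with LPS, of which 2 rose, and a median log2 fold change of -0.02. Itgb8, an integrin chain that activates latent TGF-beta, had 64.0, 49.8 and 57.2 CPM in KO and 31.0, 31.6 and 25.5 CPM in WT, a change of 0.95 ± 0.12 (adjusted p = 0.00717). The call was lost without KO replicate 3 or WT replicate 3 (largest adjusted p = 0.0676). Sdc1, a heparan sulfate proteoglycan of the cell surface, had 34.0, 29.0 and 31.7 CPM in KO and 19.2, 21.1 and 22.4 CPM in WT, a change of 0.58 ± 0.11 (adjusted p = 0.0416). Its call was lost under 7 of 12 alternatives.

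Collagen chains other than Col18a1 had 12 measured members, a median of 0.66, and 2 that rose. Called or not, 10 were above WT in KO and 2 below. Col19a1 had 5.84, 4.15 and 5.92 CPM in KO and 1.65, 1.92 and 2.05 CPM in WT (1.48 ± 0.24, adjusted p = 0.0181). Col4a1, a basement membrane chain, had 2.12, 1.48 and 1.78 CPM in KO and 0.449, 0.101 and 0.341 CPM in WT (2.63 ± 0.47, adjusted p = 0.0279). Its WT libraries lie around the level of 3 reads, so the size of that change is poorly fixed, and the call was lost under 7 of 12 alternatives, that of Col19a1 under 5. A chain this low can pass the filter on counts only through the group in which it is high. The median and direction counts over measured chains are thus no measure of the whole list of 40.

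Other matrix glycoproteins and proteoglycans had 18 measured members, a median of 0.29, and 3 that rose. Called or not, 15 were above WT in KO and 3 below. Without LPS, 13 of 15 measured were above and 2 below (median 0.20), with 0 called. Thbs4, a thrombospondin, had 2.30, 2.58 and 3.29 CPM in KO and 0.599, 0.505 and 0.227 CPM in WT (adjusted p = 0.00897). Its WT libraries lie around the level of 3 reads, so the size of that change is poorly fixed, and a gene this low can pass the filter on counts only through KO. The median and direction counts over measured genes are therefore no measure of the whole list of 44. Fbn1, the microfibril protein fibrillin, had 14.6, 10.1 and 10.9 CPM in KO and 6.59, 6.06 and 4.66 CPM in WT (1.04 ± 0.19, adjusted p = 0.0356). Mfge8, which bridges apoptotic cells to phagocytes, had 331, 334 and 390 CPM in KO and 256, 267 and 226 CPM in WT (0.49 ± 0.10, adjusted p = 0.0472). The groups do not overlap for any of the 3, but the calls of Fbn1 and Mfge8 were lost under 7 of 12 alternatives and that of Thbs4 under 3.

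The TGF-beta ligands, receptors and SMADs had 22 measured members, none called, and a median of 0.03. Tgfb1, the most expressed, had a change of -0.19 ± 0.09 (adjusted p = 0.396). Of 10 further known TGF-beta target genes, none was called, and their median was 0.07. Cdkn1a, a cell cycle inhibitor and the most expressed of them, was at -0.09 ± 0.09 (adjusted p = 0.718).

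Lists tied to versican, to chondroitin sulfate and to collagen processing had no calls with LPS. The most expressed gene of each was Cd44, the hyaluronan receptor (-0.04 ± 0.08, adjusted p = 0.885, 7 measured), Adamts4, a versican-cleaving protease (0.10 ± 0.08, adjusted p = 0.622, 2 measured), Dse, an epimerase of chondroitin sulfate (0.06 ± 0.09, adjusted p = 0.835, 17 measured), and P4hb, a subunit of prolyl 4-hydroxylase (0.05 ± 0.08, adjusted p = 0.829, 12 measured). Basement membrane genes other than collagens, with 5 measured, were led by Agrn (0.08 ± 0.08, adjusted p = 0.673). Of the other HtrA proteases 2 were measured, and the more expressed, Htra2, was at -0.07 ± 0.09 (adjusted p = 0.761).

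**Figure D5:**
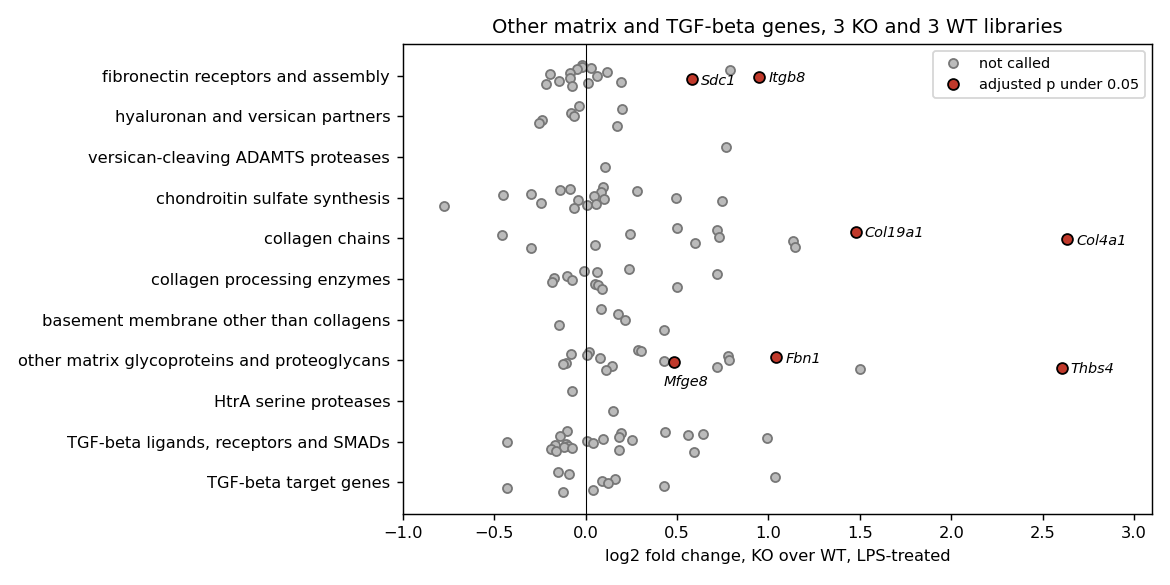
Log2 fold change of KO over WT with LPS for the measured genes of 11 lists around the 5 members, which are left out, with genes called by edgeR in red. The 7 called genes lie between 0.49 and 2.63 in 3 lists, and most points lie near 0.

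After LPS, many genes of these lists changed in both genotypes, as did most genes tested. Of all genes, 61.2% were called in KO and 57.4% in WT, so a call here does not tie a gene to the members. Of 18 fibronectin receptors and assembly genes, 9 rose and 4 fell in each genotype. Itgav, an integrin alpha chain that binds fibronectin, rose by 3.25 ± 0.08 in KO and 3.11 ± 0.08 in WT (adjusted p = 1.06e-12 and 1.77e-12). Itgb8, its partner chain in a TGF-beta activating integrin, rose to 49.8 to 64.0 CPM in KO and 25.5 to 31.6 CPM in WT, against 0.309 to 0.779 CPM in untreated KO and 0 to 0.421 CPM in untreated WT (adjusted p = 1.67e-10 in KO and 8.86e-10 in WT). The untreated level of Itgb8 lies between 0 and a few times that of 3 reads. So do those of Adamts4, Col27a1, Col19a1, Bmp1, Fbn1 and Htra4 below. Levels are therefore given for these genes, and the size of their change is not fixed by the data. The syndecan gene Sdc4 rose by 4.52 in KO and 4.29 in WT. Of the 7 genes of hyaluronan and versican binding, 2 rose and 5 fell in each genotype. Cd44 rose by 1.89 in KO and 1.78 in WT and Cemip2, a hyaluronan-degrading surface protein, by 4.13 in KO and 3.84 in WT, while the hyaluronidase gene Hyal1 changed by -2.13 in KO and -2.20 in WT.

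Of the 2 measured versican-cleaving proteases, Adamts4 rose to 185 to 211 CPM in KO and 176 to 189 CPM in WT, against 0.155 to 0.373 CPM in untreated KO and 0.193 to 0.281 CPM in untreated WT (adjusted p = 3.17e-14 in KO and 4.82e-14 in WT). Adamts1 was at -1.10 ± 0.52 in KO (adjusted p = 0.0841) and -1.65 ± 0.59 in WT (adjusted p = 0.0286), and the call in WT was lost under 6 of 19 alternatives, with values of -2.25 to -1.14 when 1 library was left out. Of 18 genes of chondroitin sulfate synthesis, 6 rose and 8 fell in each genotype. Dse was at 2.36 in KO and 2.42 in WT, the chain-elongating Csgalnact2 at -1.26 in KO and -1.14 in WT, and the sulfotransferase gene Chst12 at -1.98 in KO and -1.81 in WT, all called. These are the enzymes that build the sugar chains versican carries.

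Of 12 collagen chains, 8 rose in KO and 7 in WT, and 0 fell. Only 6 chains passed the filter on counts in the untreated libraries alone. A chain that passed only through its level with LPS is bound to rise, so these counts are no measure of the whole list of 40. The same limit holds in the other lists for genes as low without LPS as Itgb8. Col27a1 rose to 52.7 to 64.5 CPM in KO and 27.4 to 43.9 CPM in WT, against 0.195 to 0.311 CPM in untreated KO and 0 to 0.147 CPM in untreated WT (adjusted p = 2.38e-11 in KO and 8.27e-11 in WT). Col11a2 rose by 2.75 in KO and 2.43 in WT. Col19a1, at 4.15 to 5.92 CPM in KO and 1.65 to 2.05 CPM in WT with LPS, was at most 0.435 CPM in untreated KO and 0.211 CPM in untreated WT. Of 13 collagen processing genes, 6 rose in KO and 5 in WT, and 1 fell in each. They included the lysyl hydroxylase gene Plod3 (1.53 in KO and 1.53 in WT), the prolyl hydroxylase gene P4ha1 (1.38 in KO and 1.34 in WT) and Bmp1, a procollagen protease. Bmp1 had 8.22 to 9.87 CPM in KO and 6.26 to 9.10 CPM in WT with LPS, against 0 to 0.248 CPM in untreated KO and 0.0702 to 0.193 CPM in untreated WT. Of 6 basement membrane genes, 2 rose and 1 fell in each genotype. Agrn was at 3.52 in KO and 3.45 in WT and the laminin gene Lama3 at -1.91 in KO and -2.15 in WT, and Lamc1 at 0.54 in KO and 0.55 in WT, which turned to -0.050 in KO and -0.010 in WT on the RPKM scale.

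Of 17 other matrix genes, 6 rose and 3 fell in each genotype. The transglutaminase gene Tgm2, whose enzyme cross-links fibronectin, rose by 2.03 in KO and 2.05 in WT, and Srgn, a proteoglycan of secretory granules, by 2.78 in KO and 2.85 in WT. Fbn1 rose too, and was at most 0.585 CPM in untreated KO and 0.0967 CPM in untreated WT. The protease gene Htra4, 1 of 2 measured relatives of Htra1, rose to 4.43 to 5.48 CPM in KO and 4.24 to 4.94 CPM in WT, against 0.0773 to 0.248 CPM in untreated KO and 0.0967 to 0.421 CPM in untreated WT (adjusted p = 2.46e-08 in KO and 1.54e-07 in WT).

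Of 23 TGF-beta ligands, receptors and SMADs, 9 rose and 6 fell in KO, and 9 rose and 5 fell in WT. Skil, an inhibitor of SMAD proteins that is in both TGF-beta lists, rose by 2.45 in KO and 2.32 in WT, and Inhba, an activin chain, by 5.30 in KO and 4.44 in WT. The receptor gene Acvr1 rose by 1.64 in KO and 1.36 in WT, and the coreceptor gene Eng by 0.91 in KO and 0.96 in WT. Of 12 TGF-beta target genes, 4 rose and 5 fell in each genotype. Cdkn1a rose by 2.83 in KO and 2.71 in WT, and Junb, a subunit of the transcription factor AP-1, by 2.22 in KO and 2.14 in WT. Calls named in these paragraphs without a p had an adjusted p of at most 2.42e-04 in edgeR, and no difference of a response between genotypes was called.

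In bulk RNA, fewer cells of a type and less RNA per cell cannot be told apart, so markers of other cells were read beside the members. Fibroblasts are a known source of matrix proteins in tissue. Of 12 fibroblast and stromal markers, 2 exceeded 1 CPM in any library, and the list summed to 6.45 to 9.58 CPM in KO and 2.73 to 5.99 CPM in WT with LPS, and to 1.43 to 2.01 CPM in KO and 0.589 to 1.40 CPM in WT without. Pdgfrb supplied most of it with LPS, at 4.06 to 7.42 CPM in KO and 1.59 to 3.59 CPM in WT. The defining collagens Col1a1, Col1a2 and Col3a1 and the proteoglycan gene Dcn did not exceed 0.387 CPM in any library.

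Of the other marker lists, 0 monocyte, neutrophil, endothelial and dendritic cell genes were called between KO and WT in either condition. In the megakaryocyte and platelet list 1 gene, Ppbp, was called higher in KO with LPS. The 8 monocyte markers, a list that does not hold Vcan or Fn1 here, summed to 451 to 515 CPM in KO and 415 to 451 CPM in WT with LPS, and to 396 to 437 CPM in KO and 346 to 387 CPM in WT without, most of it S100a4. Of 5 measured monocyte genes, 4 were higher in KO with LPS (median log2 fold change 0.13) and 5 without (0.29). The 7 megakaryocyte and platelet markers, led by Pf4, which macrophages also express, summed to 204 to 278 CPM in KO and 160 to 171 CPM in WT with LPS, and to 193 to 210 CPM in KO and 141 to 174 CPM in WT without. Ppbp, a platelet chemokine, had 2.48 to 3.23 CPM in KO and 0.227 to 1.35 CPM in WT with LPS (edgeR adjusted p = 0.0472). Its lowest WT library with LPS lies around the level of 3 reads, so the size of that change is poorly fixed. Without LPS it had 1.43 to 3.40 CPM in KO and 0.810 to 0.967 CPM in WT. The platelet gene Gp9 did not exceed 0.147 CPM in any library. The 8 endothelial markers, led by Vwf and with Cldn5 and Emcn at 0 in all libraries, summed to 236 to 257 CPM in KO and 185 to 244 CPM in WT with LPS, and to 199 to 210 CPM in KO and 170 to 193 CPM in WT without. All 5 measured endothelial genes were higher in KO in both conditions, with medians of 0.31 with LPS and 0.64 without. In untreated WT, Pecam1 was at 0.484 to 0.810 CPM and Cdh5 at 0.484 to 0.884 CPM. Genes this low can pass the filter on counts through their level in KO, so the untreated count may be partly set by the filter. The 9 dendritic cell markers, led by Itgax, summed to 105 to 163 CPM in KO and 111 to 139 CPM in WT with LPS, and to 109 to 136 CPM in KO and 93.2 to 162 CPM in WT without. With LPS, 5 of 5 measured dendritic cell genes were higher in KO (median 0.69), and without it 1 of 2. The 10 neutrophil markers summed to 25.4 to 39.8 CPM in KO and 19.9 to 48.8 CPM in WT with LPS, and to 17.9 to 26.0 CPM in KO and 13.8 to 28.3 CPM in WT without.

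In KO against WT macrophages with LPS, Lyz2, the myeloid gene of the labels, fell (-1.17 ± 0.10, adjusted p = 0.00143) and was lower in every KO library, at 2973 to 3437 CPM in KO and 6405 to 7973 CPM in WT with LPS. Without LPS it was at 2614 to 3030 CPM in KO and 5726 to 7210 CPM in WT. The part of these marker differences in the members' higher levels was not tested.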

How the data were processed

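Messenger RNA of 12 samples was analysed from the authors' deposited tables of raw counts and of RPKM per RefSeq transcript, 1 pair of tables per condition. Per the submitters' processing notes, SAMtools 1.3.1, STAR 2.5.2b and mm10 were used. The sources used here name no counting tool, strand setting or annotation release. Names came from RefSeq for 35440 of 35745 rows and from GENCODE for 188, and 117 rows with 0.259% to 0.738% of counts were left out. A gene was represented by its transcript of highest total count.

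Genes passed filterByExpr (minimum count 10), were scaled by TMM and were tested by the quasi-likelihood test of edgeR 4.0.16 (R 4.3.3) with robust dispersions, Benjamini-Hochberg adjusted over all genes at 0.05, after a check on simulated counts. Approximate SEs are the log2 fold change over the square root of F. Genotypes were compared on the 6 libraries of a condition, and LPS responses on all 12 as 4 groups. Alternatives were DESeq2 1.42.0, its size factors, limma 3.58.1 on log2(RPKM + 0.1) of the authors' deposited values, no filter, the lowest-count transcript, a replicate block and left-out libraries. Members and lists were chosen with earlier results of these data known. Of the lists, 2 genes are not reported here, and list counts leave them out. In each list up to 3 called genes of smallest p are named, or the most expressed gene where none was called, and for each member the 3 genes of highest Pearson r.

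Same-numbered LPS and untreated libraries deviated together (r = 0.251, 0.454 and 0.197 in KO, 0.567, 0.559 and 0.298 in WT), so the numbers may pair them within a genotype. In KO, LPS library 1 with untreated library 3 gave 0.133, and LPS library 3 with untreated library 1 gave 0.147. The pairing is thus less clear there. The main fits leave it out. With the block, LPS calls went from 7333 to 8701 in KO and from 6876 to 8156 in WT, and no call of a member changed.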

Additional observations from a re-analysis of the deposited data

How the results depend on the processing

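The LPS responses of Vcan, Htra1 and Col18a1 kept their direction and their call under all alternatives run. On log2(RPKM + 0.1) in limma, the LPS responses of Fn1 (-0.64 in KO, -0.60 in WT) and Tgfbi (-0.64 in KO, -0.62 in WT) passed the threshold, and Lamc1 turned to -0.050 in KO and -0.010 in WT. The small differences of the LPS responses turned sign there for Fn1 (-0.037), Vcan (0.035) and Tgfbi (-0.018), and with DESeq2 for Tgfbi (-3.02e-04). Leaving out 1 library each moved the LPS response of Fn1 between -0.22 and 3.45e-04 in KO and that of Tgfbi between -0.16 and 0.077 in KO and between -0.22 and 0.067 in WT. It moved the difference of responses between -0.12 and 0.20 for Fn1 and between -0.11 and 0.18 for Tgfbi.

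Counts of called genes were less stable. Untreated, KO against WT gave 0 genes, 9 with no filter on low counts and 49 with DESeq2, and 0 to 749 with 1 library left out, the highest without WT replicate 1. With LPS it gave 127 genes, 276 with no filter, 265 with DESeq2 and 47 with the replicate block, where the numbers are only shared names between genotypes and the block left 0 calls untreated. Leaving out 1 library gave 17 (without KO replicate 3) to 545 (without WT replicate 1), 20 without WT replicate 3, 55 without KO replicate 1 and 61 without KO replicate 2. Without WT replicate 1 in both conditions, an alternative chosen after seeing the data, 24 genes differed in their LPS response. The cause was not tested.

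Depth limits the untreated values of Vcan and Htra1, which rest on 50 and 22 reads over the WT libraries, and the exon counts, which are differences of rows. Groups of 3 libraries were not tested for outliers.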
